A study of Homo sapiens with 6 samples.

Results

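The E2F transcription factor family was measured by 26 probe sets of 10 genes, out of 49372 probe sets and 18132 genes on the arrays. The members were all probe sets whose single annotated gene symbol was E2F1 to E2F8, TFDP1 or TFDP2. The arrays held biotin-labelled cRNA from 100 ng of total RNA of A549 cells, an established line of human lung adenocarcinoma. The 3 control arrays came from cells given a scrambled negative control. The 3 knockdown arrays came from cells in which the long noncoding RNA LINC00525 was silenced, and the series asked how that changes the transcripts of these cells, with the CDK inhibitor p21 (CDKN1A) in its title. The sample titles write "sh" while the treatment text speaks of small interfering RNA, and for knockdown replicates 2 and 3 the genotype entry reads LINC00526 and LINC00527. Neither the replicate cultures nor the time after treatment are described in the labels, so each p-value speaks only of spread among these 6 samples, and that spread may be technical.

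E2F proteins bind DNA at promoters of genes for the G1/S transition and DNA replication. Textbooks sort them by their effect on those promoters. E2F1, E2F2 and E2F3 are activators that the retinoblastoma protein holds in check until cyclin-dependent kinases phosphorylate it. E2F4 and E2F5 repress with the pocket proteins p107 and p130, E2F6 represses through Polycomb complexes without pocket proteins, and E2F7 and E2F8 are atypical repressors that bind DNA without a DP partner. TFDP1 and TFDP2 encode DP1 and DP2, the partners that E2F1 to E2F6 need. Several E2F genes are themselves E2F targets, and p21 inhibits the kinases that inactivate the retinoblastoma protein.

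The promoters of 5 members are shown. E2F8, the member with the largest fall, had no promoter entry. Those shown are of E2F1, E2F2 and E2F7, whose signal fell at a probe set, and E2F3 and E2F4, of which no probe set passed the test. Each is the RefSeq window from 250 bases before to 50 bases after the start site, 5′ to 3′, and capitals mark matches to an E2F-like motif.
E2F1 (GRCh38.p14 chr20:33686336-33686635, minus strand): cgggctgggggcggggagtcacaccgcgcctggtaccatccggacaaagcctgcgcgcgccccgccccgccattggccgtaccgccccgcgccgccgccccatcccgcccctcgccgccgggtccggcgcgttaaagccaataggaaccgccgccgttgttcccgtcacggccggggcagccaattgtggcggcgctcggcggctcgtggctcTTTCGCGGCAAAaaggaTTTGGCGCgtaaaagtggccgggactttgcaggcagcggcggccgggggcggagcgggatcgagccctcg
E2F2 (GRCh38.p14 chr1:23531184-23531483, minus strand): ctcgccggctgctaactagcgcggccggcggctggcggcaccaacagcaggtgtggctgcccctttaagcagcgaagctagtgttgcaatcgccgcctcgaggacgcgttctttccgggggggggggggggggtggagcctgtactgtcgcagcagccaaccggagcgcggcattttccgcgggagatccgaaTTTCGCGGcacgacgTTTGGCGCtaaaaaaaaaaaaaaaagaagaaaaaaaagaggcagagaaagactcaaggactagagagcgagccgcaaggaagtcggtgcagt
E2F3 (GRCh38.p14 chr6:20401629-20401928, plus strand): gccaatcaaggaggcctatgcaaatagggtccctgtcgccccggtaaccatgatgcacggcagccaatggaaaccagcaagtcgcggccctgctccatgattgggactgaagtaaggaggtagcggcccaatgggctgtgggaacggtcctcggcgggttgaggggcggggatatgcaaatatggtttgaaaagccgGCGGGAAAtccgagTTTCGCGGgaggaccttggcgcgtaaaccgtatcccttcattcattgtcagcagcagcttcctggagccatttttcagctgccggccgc
E2F7 (GRCh38.p14 chr12:77065520-77065819, minus strand): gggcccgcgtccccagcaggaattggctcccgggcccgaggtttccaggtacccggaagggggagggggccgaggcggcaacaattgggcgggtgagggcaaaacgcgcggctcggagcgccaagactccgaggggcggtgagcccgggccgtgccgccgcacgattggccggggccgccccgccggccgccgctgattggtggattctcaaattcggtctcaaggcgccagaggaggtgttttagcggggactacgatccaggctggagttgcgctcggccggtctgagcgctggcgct
E2F4 (GRCh38.p14 chr16:67191905-67192204, plus strand): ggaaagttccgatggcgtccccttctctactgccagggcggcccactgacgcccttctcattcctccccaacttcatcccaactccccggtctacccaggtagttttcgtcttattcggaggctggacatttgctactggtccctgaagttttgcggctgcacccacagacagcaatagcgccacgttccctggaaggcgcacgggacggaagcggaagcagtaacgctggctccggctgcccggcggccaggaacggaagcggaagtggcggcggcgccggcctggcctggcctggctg
The motif was searched on both strands in 8 spellings: TTTCCCGC, TTTCCCGG, TTTCGCGC, TTTCGCGG, TTTGCCGC, TTTGCCGG, TTTGGCGC and TTTGGCGG. Matches may overlap, as do TTTCGCGG and the reverse-strand TTTGCCGC of E2F1, which form 1 run of capitals. The E2F1 window held 3 matches, and the windows of E2F2 and of the E2F3 start shown held 2 each. Those of E2F4 and E2F7 held 0. At least 1 match lay in a promoter of 6 of the 8 members counted, against 6.19% of all 35116 promoters of this length in the table and 7.43% of 27305 genes. The other members with a match were E2F6, TFDP1 and TFDP2. E2F5 and E2F8 were not searched. Of the G1/S target genes described further down, 17 of 29 (58.6%) held a match. A match is a description of the letters, and both the members that fell and those that did not pass the test include genes with and without one.

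Signals are log2 values after RMA, which equalizes the arrays, so a change is read against the bulk of the genes on an array. The array medians were 5.10 to 5.11, and correlations were 0.9983 to 0.9988 within groups and 0.9960 to 0.9963 between them. Across the whole array 9.85% of the 49293 tested probe sets passed the threshold (limma adjusted p under 0.05), 5.25% as falls and 4.59% as rises. Falls were 53.4% of these calls, and 41.1% after cyclic loess, 94.5% after scaling to the poly-A controls and 98.6% after scaling to the hybridization controls. The number of arrays limits the precision. LINC00525 itself was at 3.86, 3.74 and 3.97 on the control and 3.67, 3.45 and 3.54 on the knockdown arrays (limma adjusted p = 0.0372 over genes). These levels are close to background, taken here from the 17 Tag controls, for which no human target exists and which averaged 2.27 to 4.60 on the control arrays. This call was lost without control replicate 1 or 3 or knockdown replicate 2 or 3 (limma adjusted p of 0.0960 to 0.111). All 8 epithelial and A549 markers examined were bright (8.54 to 12.83), and KRT8 alone of them changed (log2 -0.15). Of 9 measured leukocyte, fibroblast and endothelial markers, CD14 was the highest, at 6.25, and 0 passed the test. In bulk RNA, fewer cells expressing a gene and less RNA per cell cannot be told apart.

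The family moved downward in part. Of the 26 probe sets 8 fell, 0 rose and 18 did not pass the test, where 5.25% of all tested probe sets fell. These 8 belong to E2F1, E2F2, E2F6, E2F7, E2F8 and TFDP1. The median log2 change was -0.15 over the members and -0.01 over all tested probe sets. The groups did not overlap, with the knockdown arrays lower, at 12 of the 26 probe sets, against 16.8% of all. They did not overlap with the knockdown arrays higher at 2, against 11.8%. With 1 probe set a gene (the brightest), 5 of 10 member genes fell and 0 rose, against 6.83% and 5.77% of all genes (12.6% in either direction).

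**Figure D1:**
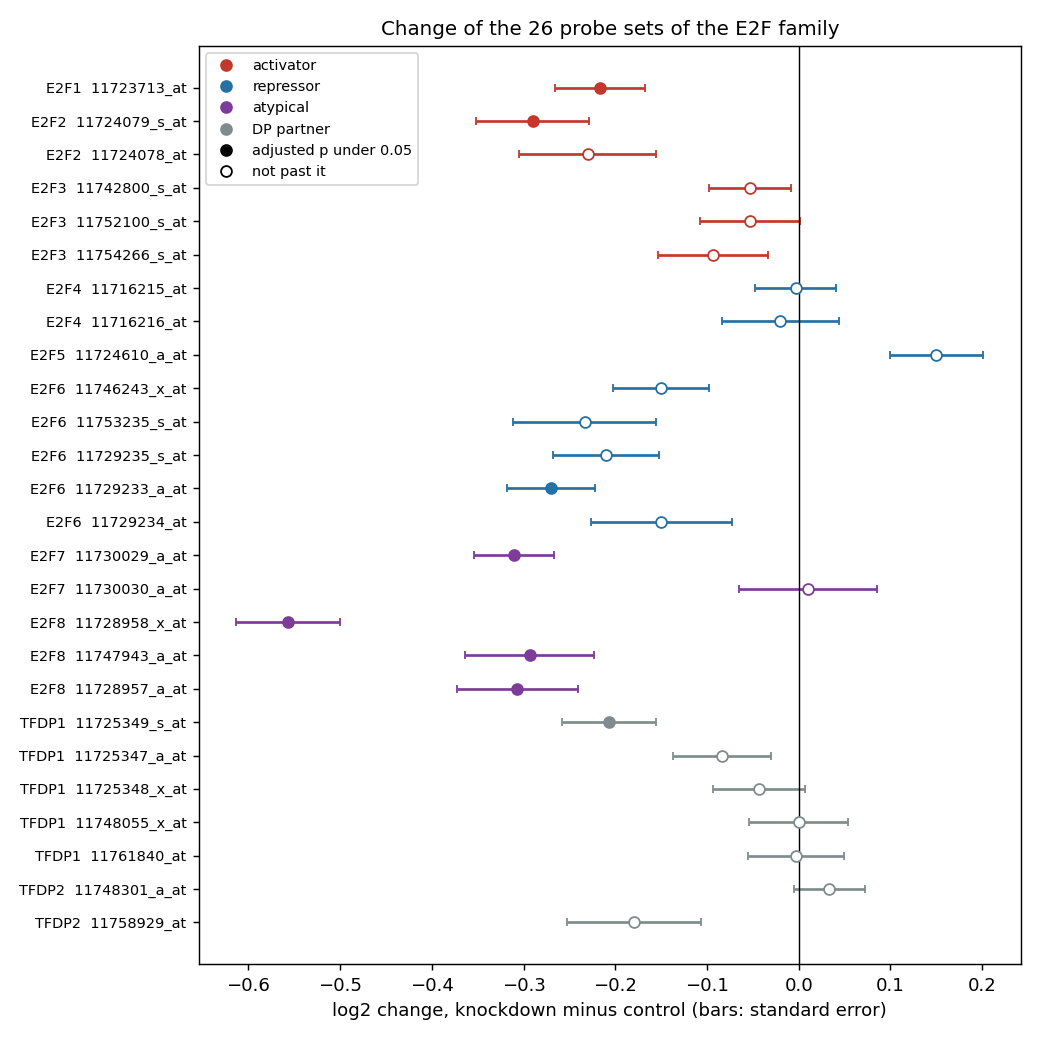
Log2 change (knockdown minus control, x axis) of each of the 26 probe sets, grouped by gene on the y axis and coloured by class; bars are standard errors (n = 3 arrays a group) and filled points passed an adjusted p under 0.05. The filled points are 8 falls, led by E2F8 at -0.56, and E2F5 lies farthest to the right at 0.15.

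Of the atypical repressors' 5 probe sets 4 fell, against 5.25% of all tested probe sets. E2F8, a repressor that also acts to restrain E2F1 in S phase, was at 6.27, 6.25 and 6.40 on the control arrays and at 5.71, 5.72 and 5.82 on the knockdown arrays at its brightest probe set. All knockdown values lay below all control values. The signal was 1.47-fold lower (6.31 ± 0.081 against 5.75 ± 0.061, SD, n = 3 each; log2 -0.56 ± 0.056 SE, limma adjusted p = 0.000996). The suffix _x_at of this probe set marks probes that can bind other transcripts. The other E2F8 probe sets carry the suffix _a_at, used for probes shared by transcripts of 1 gene. Their changes were smaller: 1 went from 5.38 ± 0.072 to 5.09 ± 0.13 (log2 -0.29 ± 0.070 SE, limma adjusted p = 0.0374) and the other from 4.29 ± 0.13 to 3.98 ± 0.032 (log2 -0.31 ± 0.066 SE, limma adjusted p = 0.0256; SD, n = 3 each). The groups overlapped at none of the 3 E2F8 probe sets, where 16.8% of all tested probe sets were likewise apart with the knockdown arrays lower. At the dimmest of them 1 of the 17 Tag controls lay above the control signal. The brightest probe set kept its call without any 1 of the 6 arrays (limma adjusted p of 0.00318 to 0.00684). Those of the other probe sets were each lost in 5 of 6 such fits, with limma adjusted p up to 0.119 at the first and 0.0832 at the second; the first kept its call without knockdown replicate 1, and the second without control replicate 3.

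E2F7, the other atypical member, gave different answers at its probe sets. At the brighter one the control arrays read 6.64, 6.64 and 6.71 and the knockdown arrays 6.34, 6.33 and 6.39, with a clear gap between the groups. This is a 1.24-fold fall (log2 -0.31 ± 0.044 SE, limma adjusted p = 0.00472), which held without any 1 array (limma adjusted p of 0.0124 to 0.0236). The second probe set read 5.93, 5.86 and 5.86 on control and 6.07, 5.81 and 5.80 on knockdown arrays, and the groups overlapped. Its log2 change was 0.01 ± 0.075 SE (limma adjusted p = 0.954), and -0.27 when the arrays were scaled to the hybridization controls. With both probe sets averaged, E2F7 was at -0.15 and did not pass (limma adjusted p = 0.0546). Both carry the suffix _a_at.

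**Figure D2:**
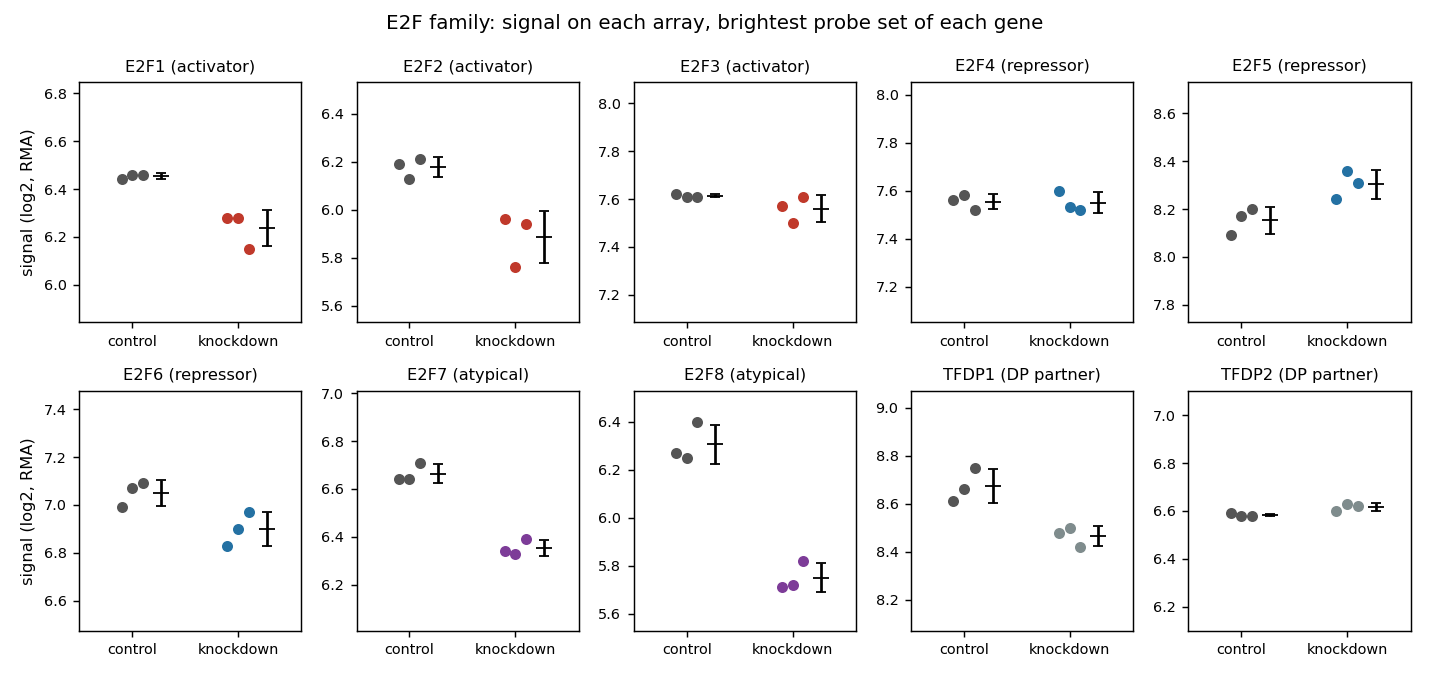
RMA signal (log2, y axis, each panel spanning 1 log2 unit) of the brightest probe set of each member on the 3 control (grey) and 3 knockdown (coloured) arrays; horizontal bars with whiskers are means ± SD. The groups are apart and lower on knockdown arrays for E2F1, E2F2, E2F6, E2F7, E2F8 and TFDP1, apart and higher for E2F5 and TFDP2, and overlapping for E2F3 and E2F4.

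Among the activators E2F1 and E2F2 were lower and E2F3 did not pass. E2F1, which drives entry into S phase and can also induce apoptosis genes, read 6.44, 6.46 and 6.46 on control arrays and 6.28, 6.28 and 6.15 on knockdown arrays. The control values lay within 0.02 of each other and above every knockdown value. Its single probe set fell 1.16-fold (log2 -0.22 ± 0.049 SE, limma adjusted p = 0.0312). The call was lost without any 1 of the 6 arrays (limma adjusted p of 0.0512 to 0.102), while the log2 change stayed between -0.24 and -0.17. E2F2, another S-phase activator, read 6.19, 6.13 and 6.21 on control and 5.96, 5.76 and 5.94 on knockdown arrays at its brighter probe set. All knockdown arrays were lower, and knockdown replicate 2 was the lowest. This was a fall of 0.29 ± 0.061 on the log2 scale (SE, limma adjusted p = 0.0244). Its call was lost without control replicate 1, 2 or 3 or knockdown replicate 2 (limma adjusted p of 0.0510 to 0.0849). The dimmer E2F2 probe set went from 3.83 ± 0.16 to 3.60 ± 0.025 (SD, n = 3 each; log2 -0.23 ± 0.075 SE, limma adjusted p = 0.0982), with 1 of the 17 Tag controls above the control signal. Without control replicate 3 it passed as a fall (limma adjusted p = 0.0278).

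E2F3, whose gene encodes an activating and a shorter product from separate start sites, read 7.62, 7.61 and 7.61 on control and 7.57, 7.50 and 7.61 on knockdown arrays at the brightest of 3 probe sets. Knockdown replicate 3 equalled the lowest control array, so the groups overlapped. The 3 log2 changes were -0.05, -0.05 and -0.09 (limma adjusted p = 0.524, 0.611 and 0.396). All 3 carry the suffix _s_at, used for probes shared by several transcripts. They were past the threshold only after scaling to the hybridization controls (-0.37 to -0.33) or to the poly-A controls (-0.23 to -0.19).

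Of the 8 repressor probe sets 1 fell and 0 rose, against 5.25% and 4.59% of all tested probe sets. E2F4, the E2F bound to pocket proteins in resting cells, did not pass: its brighter probe set read 7.56, 7.58 and 7.52 on control and 7.60, 7.53 and 7.52 on knockdown arrays, and the groups overlapped. The log2 change was -0.003 ± 0.044 SE (limma adjusted p = 0.977), and -0.02 ± 0.063 SE at the dimmer probe set (limma adjusted p = 0.887). The direction of the brighter one turned to 0.03 under cyclic loess. E2F5, a repressor that pairs with p130, was higher without passing the test. It read 8.09, 8.17 and 8.20 on control and 8.24, 8.36 and 8.31 on knockdown arrays, so that every knockdown array lay above every control array. The log2 change was 0.15 ± 0.051 SE (limma adjusted p = 0.111) and turned to -0.13 when scaled to the hybridization controls. It passed as a rise when only probe sets above the Tag controls were tested (limma adjusted p = 0.0494) and with a variance trend and robust moderation (limma adjusted p = 0.0209).

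E2F6, the member that works with Polycomb proteins, was lower at all 5 of its probe sets, as were 27852 of all 49293 tested probe sets. At 1 of the 5 the fall passed. That probe set read 6.50, 6.62 and 6.50 on control and 6.27, 6.26 and 6.28 on knockdown arrays, with no overlap. It fell 1.21-fold (log2 -0.27 ± 0.048 SE, limma adjusted p = 0.0123), and the call held without any 1 array (limma adjusted p of 0.0304 to 0.0464). The other 4 had log2 changes of -0.23, -0.21, -0.15 and -0.15 (limma adjusted p of 0.0589 to 0.277). At 2 of those 4 the groups overlapped. The brightest E2F6 probe set, of the _x_at type, was among the 4 at -0.15, so the count of genes leaves E2F6 out; with its probe sets averaged E2F6 fell by 0.20 (limma adjusted p = 0.00855).

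For the DP partners 1 of 7 probe sets passed, where 9.85% of all tested probe sets did. TFDP1 read 8.61, 8.66 and 8.75 on control and 8.48, 8.50 and 8.42 on knockdown arrays at its brightest probe set, of the _s_at type, and every knockdown value was the lower. The log2 change was -0.21 ± 0.051 SE (limma adjusted p = 0.0410), and the call was lost without any 1 of the 6 arrays (limma adjusted p of 0.0552 to 0.117). The other 4 TFDP1 probe sets lay at -0.08 to 0 (limma adjusted p of 0.390 to 1), with overlapping groups. Their average with the brightest was -0.07 (limma adjusted p = 0.240). TFDP2 read 6.59, 6.58 and 6.58 on control and 6.60, 6.63 and 6.62 on knockdown arrays. The groups were apart by 0.01, the last decimal of the file, and the log2 change of 0.03 ± 0.039 SE did not pass (limma adjusted p = 0.665) and turned to -0.25 and -0.11 under the hybridization and poly-A scalings. The second TFDP2 probe set was lower without passing (log2 -0.18 ± 0.073 SE, limma adjusted p = 0.174).

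By class, 2 of 6 activator, 1 of 8 repressor, 4 of 5 atypical and 1 of 7 DP probe sets fell, with median log2 changes of -0.16, -0.15, -0.31 and -0.04. Across all tested probe sets 5.25% fell, and 4070 of 27758 did when only those above the Tag controls were tested. Most repressor probe sets belong to E2F6. At the brightest probe set of each gene, 2 of 3 activators, 0 of 3 repressors, 2 of 2 atypical members and 1 of 2 DP partners fell. The medians of these genes were -0.22, -0.003, -0.43 and -0.09, and 6.83% of all genes fell. Differences between members were compared in 6 pairs as log2 ratios within each array, at the brightest probe set of each gene. The change of E2F8 minus that of E2F4 was -0.55 ± 0.085 (SE), minus that of E2F1 -0.34 ± 0.090 and minus that of E2F7 -0.25 ± 0.030. The change of E2F1 minus that of E2F4 was -0.21 ± 0.040 and minus that of E2F3 -0.16 ± 0.072, and that of TFDP1 minus that of TFDP2 was -0.24 ± 0.050. In each pair the ratios of the groups did not overlap, and the exact 2-sided permutation p was 0.1, the smallest that 3 arrays against 3 allow, also after adjustment over the 6 pairs. These differences are therefore not past a threshold of 0.05. They also depend on the probe set: without _s_at and _x_at probe sets the difference of E2F8 from E2F7 was 0.02, from E2F1 -0.08 and from E2F4 -0.29. With probe sets averaged, the difference of TFDP1 from TFDP2 was 0.006.

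**Figure D3:**
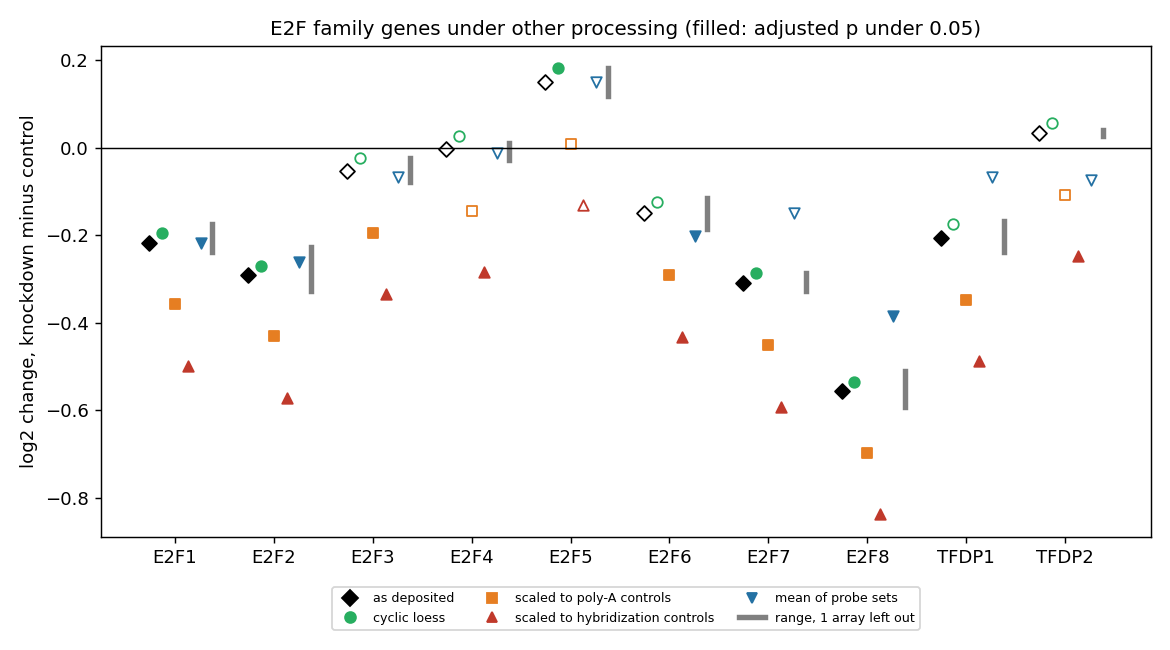
Log2 change (y axis) of each member gene as deposited and under 4 other ways of processing, with grey bars for the range when 1 array was left out; filled symbols passed an adjusted p under 0.05. E2F8 is lower under each of the 5, from -0.84 to -0.39, and scaling to the hybridization controls lowers every member by 0.28.

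All of these changes depend on what the arrays are scaled to. The bacterial hybridization controls averaged 9.22 ± 0.11 in the control group and 9.50 ± 0.045 in the knockdown group (n = 3 each, SD), a gain of 0.28, and the poly-A controls gained 0.14. Scaled to them, the median change of all genes went from -0.01 to -0.29 and -0.15, and 25 and 19 of the 26 member probe sets fell, where 40238 and 20489 of all 49293 did. The part of this difference in the members' changes was not tested.

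Genes that E2F proteins are known to activate at the G1/S transition were mostly lower. Of 34 listed genes 32 were analysed here, and 28 fell, 0 rose and 4 did not pass, against 6.83% of all genes falling. When only genes above the Tag controls were tested, 30 fell, where 1816 of 11364 genes did. The median log2 change of the 32 was -0.28 (all genes -0.01), and all 32 lay below 0, as did 10227 of all 18132 genes. CCNE2, encoding cyclin E2, fell by 0.72 ± 0.11 (SE, limma adjusted p = 0.00551). Its arrays read 5.46, 5.45 and 5.83 against 4.77, 4.83 and 4.98, and its second probe set also fell (log2 -0.30, limma adjusted p = 0.0164). Its paralog CCNE1, encoding cyclin E1, was at -0.10 ± 0.040 (limma adjusted p = 0.147). DTL, which directs degradation of the licensing factor CDT1, fell by 0.47, the flap endonuclease FEN1 by 0.44, the helicase subunits MCM4 and MCM2 by 0.40 and 0.37, FBXO5, an inhibitor of the anaphase-promoting complex, by 0.39, and RRM1, the large subunit of ribonucleotide reductase, by 0.38. The repair gene BRCA1 fell by 0.34 (limma adjusted p = 0.0354), a call lost without any 1 array but knockdown replicate 1 (limma adjusted p of 0.0580 to 0.112), under cyclic loess (0.0532) and with the replicate block (0.0614). Its brightest probe set is of the _x_at type. Without _s_at and _x_at probe sets BRCA1 was at -0.15 (limma adjusted p = 0.120), and 3 of its 4 other probe sets, at -0.17 to -0.15, did not pass. Besides CCNE1, CCNA2 (-0.13), SLBP (-0.15) and MYBL2 (-0.10) did not pass. Without 1 array 17 to 23 of the 32 fell, the fewest without control replicate 2 (17) and knockdown replicate 2 (18). In these fits 472 and 552 of all 18132 genes fell, against 1239 with all arrays.

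Of 6 measured apoptosis genes known as E2F1 targets 2 rose and 0 fell, where 5.77% of all genes rose and 6.83% fell. Their median log2 change was 0.17. BBC3, which encodes PUMA, a trigger of mitochondrial apoptosis, rose 1.79-fold (log2 0.84 ± 0.066 SE, limma adjusted p = 0.000298), and PMAIP1, NOXA, rose by 0.44 (limma adjusted p = 0.00121), a call lost when scaled to the hybridization controls (log2 0.16, limma adjusted p = 0.109). Both are also known p53 targets. TP73, APAF1, BCL2L11 and HRK lay between -0.10 and 0.25 and did not pass.

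**Figure D4:**
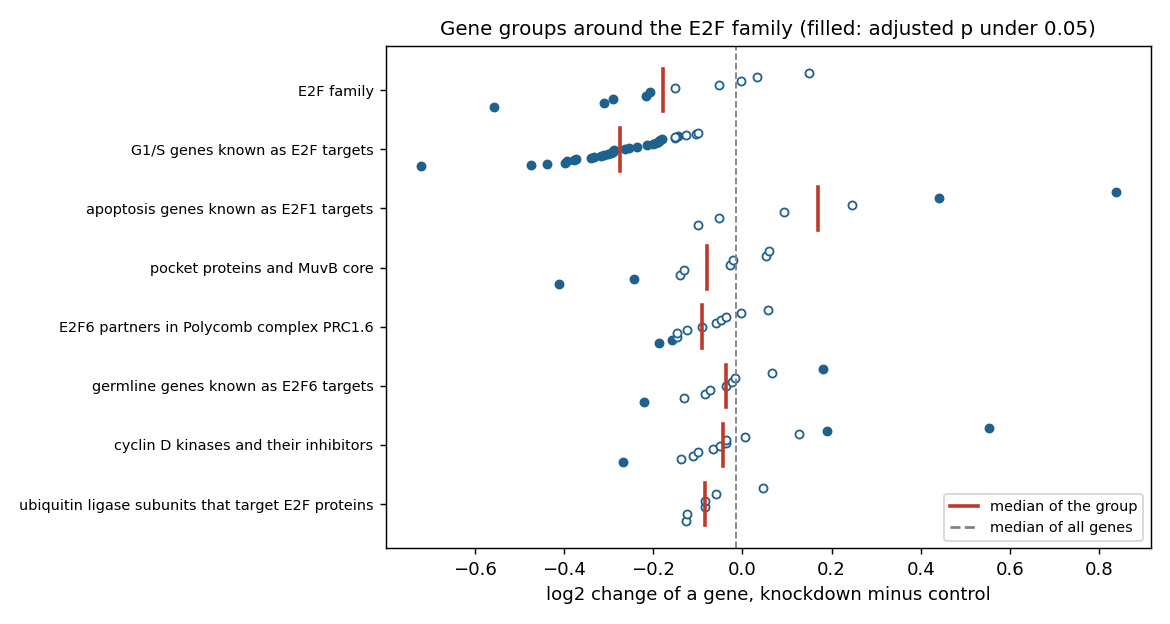
Log2 change (x axis) of every measured gene of the E2F family and of 7 lists of related genes (1 point a gene, 1 row a list); filled points passed an adjusted p under 0.05, red bars are list medians and the dashed line is the median of all genes (-0.01). The G1/S targets form the row shifted left as a whole, with a median of -0.28, and BBC3 is the point at 0.84.

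Pocket proteins hold E2F proteins in check. Of 8 pocket proteins and subunits of the MuvB core, which joins them in the DREAM repressor, 2 fell and 0 rose, against 6.83% and 5.77% of all genes, with a median of -0.08. LIN9, a MuvB subunit, fell by 0.41 ± 0.059 (SE, limma adjusted p = 0.00507) at its brightest probe set. Its other probe sets were lower without passing, at -0.19 and -0.17 (limma adjusted p = 0.158 and 0.0529). RB1, the retinoblastoma gene, fell by 0.24 ± 0.053 (SE, limma adjusted p = 0.0246) at its brightest probe set, and its other probe sets lay at 0.04 and 0.10; averaged they gave -0.03 (limma adjusted p = 0.728). The RB1 call was also lost without any 1 array but knockdown replicate 1 (limma adjusted p of 0.0503 to 0.0758). RBL1 (p107) and RBL2 (p130) were at -0.02 and -0.03 (limma adjusted p = 0.857 and 0.816). Their other probe sets did not pass either. Those of RBL1 lay at -0.17 and -0.20 (limma adjusted p = 0.259 and 0.0592), and those of RBL2 between -0.14 and 0.07.

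Upstream of the pocket proteins, 2 of 12 measured D cyclins, G1 kinases and inhibitors rose and 1 fell (median -0.04), so that 3 of 12 changed where 12.6% of all genes did. CDKN1A, the p21 inhibitor, read 9.56, 9.57 and 9.48 on control and 10.00, 10.09 and 10.18 on knockdown arrays, a 1.47-fold rise (log2 0.55 ± 0.055 SE, limma adjusted p = 0.000891). CDKN1B, encoding p27, rose by 0.19 (limma adjusted p = 0.0156) but was at -0.09 when scaled to the hybridization controls. Its call was lost without control replicate 2 (limma adjusted p = 0.0628), and its other probe set was at 0.05. CCND3, cyclin D3, fell by 0.27 (limma adjusted p = 0.00398) at its brighter probe set; the other, near background, was at 0.04, and averaged they did not pass (log2 -0.12, limma adjusted p = 0.111). Of 6 subunits of ubiquitin ligases known to target E2F proteins, 0 rose and 0 fell, against 5.77% and 6.83% of all genes. Their log2 changes were -0.13 to 0.05. SKP1 and CUL1 had an unadjusted limma p under 0.05 (0.0192 and 0.0160). That cut-off was used for no other list, and the share of all genes under it was not counted.

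E2F6 partners of the PRC1.6 Polycomb complex included 2 falls among 11 measured, WDR5 (log2 -0.19, limma adjusted p = 0.0263) and HDAC1 (-0.16, limma adjusted p = 0.0290), with a median of -0.09, where 6.83% of all genes fell. The HDAC1 call was lost without any 1 array (limma adjusted p of 0.0572 to 0.0942) and with probe sets averaged (0.198), and that of WDR5 without any but knockdown replicate 3 (0.0630 to 0.0846). A second HDAC1 probe set also fell (log2 -0.19, limma adjusted p = 0.0287), and the dimmest, near background, was at 0.02. The other WDR5 probe set was at -0.14 (limma adjusted p = 0.114). Of 9 germline genes that E2F6 is known to silence, SMC1B fell (-0.22, limma adjusted p = 0.0174) and TEX11 rose (0.18, limma adjusted p = 0.0259, and -0.10 scaled to the hybridization controls). Both were near background, with 2 and 16 of the 17 Tag controls above their control signals. The SMC1B call was lost without any 1 array but knockdown replicate 3 and the TEX11 call without any (limma adjusted p of 0.0518 to 0.0671 and of 0.0569 to 0.0846). With probe sets averaged SMC1B did not pass (log2 -0.11, limma adjusted p = 0.128). The median of the list was -0.04, and 1 rise and 1 fall among 9 compare with 5.77% and 6.83% of all genes.

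The genes most like E2F1 over the 6 arrays, by the root mean square difference of log2 values after each gene's own mean was subtracted, were LEMD3 (0.012), MRE11 (0.018) and ZSCAN16 (0.018), where the median gene differed by 0.13. Those most like E2F8 were the replication factor gene GINS3 (0.043), DLEU2 (0.047) and CHML (0.053), against a median of 0.29. Their log2 changes were -0.22, -0.22 and -0.21 for the first group and -0.53, -0.51 and -0.55 for the second. Such alike changes follow from how the genes were picked, at the brightest probe set of each. The other probe sets of LEMD3 lay at -0.04 and 0.003, and those of DLEU2, near background, at 0.13 and 0.02. Those of ZSCAN16 and CHML also fell, and those of MRE11 were mixed. E2F8 itself changed less at its other probe sets, as given above.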

How the data were processed

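The data are transcript signals from 6 single-colour arrays. The authors deposited log2 values after RMA (background correction, quantile normalization and summarization by probe set), the only step in the submitters' processing notes; for the software, its version and the build, the sources used here give nothing. The values have 2 decimals and were not normalized again. Gene names come from GEO's annotation of the platform: 44994 had 1 symbol and 1832 several, and 44967 of the first were matched by gene identifier to the GRCh38.p14 gene table, which serves for names only. Groups came from the titles.

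Control and knockdown arrays were contrasted in R 4.3.3 with limma 3.58.1 (lmFit, eBayes, 2-sided, no covariate) over all 49293 probe sets without the 79 control probe sets, with Benjamini-Hochberg adjustment over all of them. Members are given from this fit. Lists, gene counts and genes outside the family come from a second fit over 18132 genes, each represented by its brightest single-symbol probe set. Fold changes are ratios of geometric means. Pairs of members were compared by exact permutation. Tested on simulated data, the fit over probe sets recovered 8% of changes of 0.2 log2 units, 60% of 0.3 and 100% of 0.6, and the fit over genes 26%, 80% and 100%. Far fewer features changed in these simulations, with 141 and 159 calls against 4853 and 2285 in the data. The adjusted threshold was therefore stricter there, and these shares do not measure the sensitivity in the data.

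The members, lists and tests were chosen with earlier results of these data known. Named genes are all members, LINC00525, RB1, RBL1, RBL2, CCNE1, CCNE2, CDKN1A, the 8 largest called changes of the G1/S list, the 3 largest of each other list and 3 genes most like E2F1 and E2F8. KRT8, CD14, CCNA2, SLBP, MYBL2, TP73, APAF1, BCL2L11, HRK, SKP1 and CUL1 lie outside this rule and were named after their values were seen. Some genes of the lists are not reported here. Promoters are RefSeq sequences searched with Python 3.11.15. Alternatives were cyclic loess, scaling to 18 hybridization or 24 poly-A control probe sets, a filter at the highest Tag mean (4.65), trend and robust moderation, no _s_at and _x_at probe sets, averaged probe sets, a replicate block and leaving out each array.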

Additional observations from a re-analysis of the deposited data

How the results depend on the processing

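Over all results, 410 of 520 values under the alternatives other than leaving out an array were classed as unchanged. For a gene or probe set this means the same direction and side of the threshold. For a count it means equal or close to the main count, and differences between members are also among these values. Of the 8 member probe sets that fell, those of E2F6, E2F7 and E2F8 named first above kept their call in every fit run on them. Those of E2F1 and TFDP1 kept it in 5 of 7 and 4 of 6 fits on all arrays, and in 0 of the 6 fits that leave out 1 array.

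Member probe sets that fell numbered 8, and 25 scaled to hybridization controls, 19 scaled to poly-A controls, 5 without _s_at and _x_at (a smaller set of probe sets) and 3 to 5 when 1 array was left out. Member genes that fell numbered 5, and 9 scaled to hybridization controls and 2 to 4 without 1 array. Rises went from 0 to 1 (E2F5) above the Tag controls and with trend and robust, for probe sets and genes, and under cyclic loess for genes. G1/S targets that fell went from 28 to 17 to 23 without 1 array. Falls over all genes went from 1239 to 472 to 792 without 1 array, and to 15085 scaled to hybridization controls. Over all probe sets 4853 were called, and 40795 scaled to hybridization controls, 21673 scaled to poly-A controls, 8064 with trend and robust, 2994 without _s_at and _x_at and 2215 to 3549 without 1 array. The causes of changes under scaling and moderation were not tested.

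Differences between members moved without _s_at and _x_at probe sets to -0.29 (E2F8 from E2F4), -0.077 (E2F8 from E2F1), -0.12 (TFDP1 from TFDP2) and 0.017 (E2F8 from E2F7, turned in sign), and with averaged probe sets to -0.37, -0.17 and 0.006 for the first 3, the last turned in sign; other probe sets stand for the genes there. Leaving out 1 array gave -0.60 to -0.49 (E2F8 from E2F4), -0.42 to -0.30 (E2F8 from E2F1), -0.26 to -0.22 (E2F8 from E2F7), -0.22 to -0.10 (E2F1 from E2F3), -0.25 to -0.19 (E2F1 from E2F4) and -0.28 to -0.20 (TFDP1 from TFDP2).

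Small values turned in sign. Under cyclic loess E2F4 was at 0.027, a TFDP1 probe set at 0.013 and RBL2 at 0.0028. Scaled to hybridization controls, E2F5 was at -0.13, the second E2F7 probe set at -0.27, TFDP2 at -0.25, TEX11 at -0.10 and CDKN1B at -0.091. Scaled to poly-A controls, that E2F7 probe set was at -0.13 and TFDP2 at -0.11. TFDP2 was at -0.073 with averaged probe sets and CCNE1 at 0.023 without _s_at and _x_at. Without 1 array E2F4 ranged from -0.028 to 0.012 and from -0.077 to 0.043 at its dimmer probe set, the second E2F7 probe set from -0.078 to 0.057, the TFDP1 probe set from -0.04 to 0.03, RBL1 from -0.06 to 0.02 and RBL2 from -0.055 to 0.03.

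Whether the replicate numbers pair the arrays is not known. Deviations of same-numbered arrays from their group means correlated at 0.093, 0.062 and -0.007. Differently numbered arrays were not compared in this way, so these values do not settle it. With the replicate block 5 member probe sets and 3 member genes fell, and 20 G1/S targets. Falls over the whole array were fewer too: 1594 of 49293 probe sets and 747 of 18132 genes, against 2590 and 1239 without the block.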
